A study of Mus musculus with 64 samples.

Results

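Small RNA of gonadal fat was compared between 5 humanized males and 4 wild type (WT) males, which are 9 of the 64 libraries of the series and 9 of its 20 gonadal fat small RNA libraries. These libraries were chosen by their labels alone, as every male adipose small RNA library of either genotype. In the humanized mice the human AS3MT gene is expressed in place of the mouse gene, whose product methylates arsenic, and the WT mice carry the mouse gene. All animals were of the strain 129S6/SvEvTac, and all drank water with 400 ppb of inorganic arsenic (iAs) over 4 weeks, so no comparison was made with unexposed mice. The ages of the animals are not given in the sources used here. Small RNA libraries were prepared with a TriLink CleanTag kit. The library names have 2 forms, _Ad_ and _AD_, whose sample numbers partly repeat, and these are called runs here. The _Ad_ run held humanized males 1 to 3 and WT males 1 and 2, and the _AD_ run held humanized males 4 and 5 and WT males 3 and 4.

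MicroRNAs (miRNAs) are RNAs of about the length of a short oligonucleotide that guide Argonaute proteins to messenger RNAs, mainly through the seed at bases 2 to 8, and lower their stability and translation. In fat, miRNAs such as miR-143 and the let-7 family act on adipocyte differentiation and insulin signalling. Fat also holds blood vessels, immune cells and blood, which bring their own miRNAs, such as miR-451 and miR-486 of red blood cells and miR-223 of myeloid cells. Some miRNAs circulate outside cells, among them miR-122, which hepatocytes make in abundance. In bulk tissue, fewer cells of a type and less RNA per cell cannot be told apart.

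The deposited table names each feature by its hairpin, its arm and, for reads that start beside the annotated 5′ end, the sign and size of the shift. A shifted form begins at another base and so has another seed. Which sign means a start further inside the hairpin arm is not given in the sources used here, so no sequence of a shifted form is printed. The sequences below are the annotated mature forms from RefSeq (GRCm38.p6) with the seed in capitals. They are shown because the differences of the report fall on these miRNAs or on shifted forms of them. The let-7 members, all lower in humanized males in their point estimates, share 1 seed, which is why they are set side by side.
let-7a-5p: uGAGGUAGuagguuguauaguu
let-7b-5p: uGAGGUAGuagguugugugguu
let-7c-5p: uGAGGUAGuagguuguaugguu
let-7d-5p: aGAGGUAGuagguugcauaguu
The opposite arm of the let-7d hairpin, let-7d-3p, has an unrelated seed. It lies on the minus strand at chr13:48536024-48536045.
let-7d-3p: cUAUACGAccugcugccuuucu
miR-25-3p and miR-92a-3p come from related clusters and share a seed.
miR-25-3p: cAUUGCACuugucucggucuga
miR-92a-3p: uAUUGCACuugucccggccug
The red blood cell miRNAs miR-451a and miR-144-3p come from neighbouring hairpins on the plus strand, at chr11:78073186-78073207 and chr11:78073047-78073066, and have different seeds.
miR-451a: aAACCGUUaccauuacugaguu
miR-144-3p: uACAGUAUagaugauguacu
Among miRNAs of the hepatocyte list, miR-192-5p and miR-194-5p also differ in their seeds.
miR-192-5p: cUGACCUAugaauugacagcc
miR-194-5p: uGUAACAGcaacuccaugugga
The annotated forms of miRNAs with the smallest p among those higher in humanized males share no seed with one another. For miR-195, miR-223, miR-28 and miR-146b the small p belongs to a shifted form, whose seed was not derived. miR-5121, also among these miRNAs, is not printed.
miR-195a-3p: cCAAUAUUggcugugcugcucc
miR-223-3p: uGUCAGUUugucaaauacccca
miR-380-3p: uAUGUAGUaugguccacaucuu
miR-455-5p: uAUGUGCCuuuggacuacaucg
miR-28a-5p: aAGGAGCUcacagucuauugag
miR-329-5p: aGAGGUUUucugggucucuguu
miR-218-1-3p: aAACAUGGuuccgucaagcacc
miR-99a-3p: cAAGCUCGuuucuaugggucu
miR-146b-5p: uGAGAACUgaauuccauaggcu
The called miRNAs miR-486-5p, miR-486-3p and miR-320-3p are named only.

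Values are normalized signal as the authors deposited it, and differences are humanized minus WT on the scale of log2(signal + 1). On that scale of inferred reads, the 9 libraries held 10772200 to 22449100 listed reads and 1174 to 1428 features. Reads are inferred from the step between values in each library, taking 1 step as 1 read, and features under 10 such reads appear at 0. The signal of 10 reads was 15.04 and 16.1 in WT males 1 and 2, the shallowest of the 9, and 7.96 to 12.9 in the other 7. Pairwise correlations of log2 signal between the 9 libraries were 0.875 to 0.943 across features, which are not independent replicates. The first principal component of the 9 libraries (26.7% of the variance) placed WT males 1 and 2 at 36.3 and 28.5 and the other 7 between −27.4 and 8.52. The replacement was checked in long RNA libraries of gonadal fat from humanized and WT males. Their labels give the molecule as total RNA but cite a protocol by Chu and colleagues that is known for chromatin run-on sequencing. Whether these libraries hold nascent or mature RNA is not given in the sources used here, which bears on every long RNA value below. Mouse As3mt had a signal of 2.79, 2.01 and 3.93 in humanized males, against 1218 and 1647 in WT males (log2 difference −8.53, limma adjusted p = 0.00244). The neighbouring mouse gene Borcs7, whose protein belongs to a complex on lysosomes, is also replaced by the human gene. Mouse Borcs7 stood at 15.8 to 20.5 in humanized males, against 994 and 1507 in WT males (−6.04, limma adjusted p = 6.72e-05). Of 17394 genes tested in the long RNA, 3 were called (0.0172%). Adipocyte genes were abundant in both groups. Adipoq, the hormone adiponectin, had a signal of 116720 to 244916 in humanized males and 209550 and 222440 in WT males (−0.20). Cidec, a lipid droplet protein, was at 250901 to 358918 in humanized males, against 475874 and 520188 in WT males (−0.69). Lep, the hormone leptin, was at 102369 to 243452 in humanized males, against 45002 and 85497 in WT males (1.17). Fabp4 was at −0.59 and Plin1 at 0.29. None of these genes was called (limma adjusted p from 0.497 to 0.894).

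Which small RNAs differed between humanized and WT males was asked of 1298 features, of which 750 were shifted forms. At a limma adjusted p under 0.05, 1 feature (0.077%) was higher and 7 (0.539%) were lower in humanized males. The 7 lower ones were forms of miR-486 and its near copy miR-3107 (5 forms), miR-320-3p and let-7d-3p. All 8 called features had the same limma adjusted p of 0.0487. At an unadjusted limma p under 0.05 were 94 higher (7.24%) and 105 lower features (8.09%). Features whose humanized and WT male values did not overlap numbered 20 higher (1.54%) and 30 lower (2.31%). The median difference over all features was 0.04, and 590 features (45.5%) were below 0. The calls stood at the edge of the threshold: leaving out any 1 of the 9 male libraries other than WT male 4 left 0 features called by limma, with 141 to 218 at an unadjusted p under 0.05, and leaving out WT male 4 gave 25. Within the _Ad_ run 10 features were called, of which 9 were higher and 1 lower in humanized males, and 2 of them were among the 8. WT males 1 and 2 of that run are the shallowest of the 9 male libraries. Features near 10 reads can thus be listed at 0 in them and above 0 in humanized males. The part of this floor in the 9 higher calls was not tested. Within the _AD_ run 1 feature, a lower one, was called, and it was not among the 8.

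**Figure D1:**
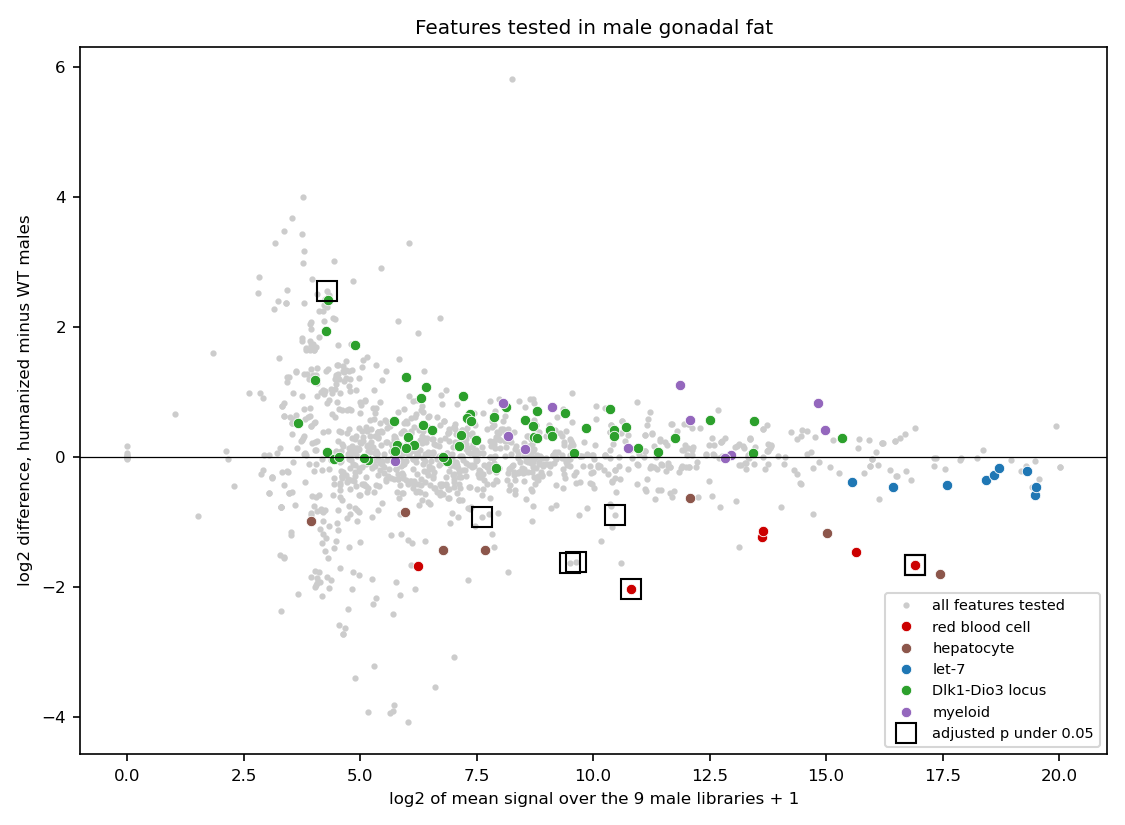
Log2 difference (humanized minus WT males) of each of the 1298 features against log2 of its mean signal plus 1 over the 9 male libraries. Colours mark members of 5 miRNA lists and squares mark the 8 called features, of which 7 lie below 0.

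Of the red blood cell miRNAs, both arms of miR-486 were lower in humanized male fat and miR-451 and miR-144 did not pass the adjusted threshold. miR-486-5p, an intronic miRNA of the Ank1 gene that is abundant in red blood cells and striated muscle, had a signal of 53376, 84187, 71061, 43081 and 45353 in humanized males 1 to 5, against 199323, 336754, 204380 and 69218 in WT males 1 to 4. Of the 4 WT males, 3 stood above every humanized male, and WT male 4 fell within the range of the humanized ones. The difference was −1.66 ± 0.37 (SE, limma adjusted p = 0.0487). It was −1.92 within the _Ad_ run and −1.43 within the _AD_ run. Its near copy miR-3107-5p, which current nomenclature calls miR-486b-5p, gave nearly the same values in every library (−1.66, limma adjusted p = 0.0487), so reads of the 2 copies cannot be told apart here. The opposite arm, miR-486-3p, had a signal of 557, 1055, 913, 551 and 534 in humanized males, against 2720, 5604, 3134 and 1222 in WT males. Its groups did not overlap, and the difference was −2.04 ± 0.43 (SE, limma adjusted p = 0.0487). The forms shifted by +2, miR-486-5p_+_2 (−1.61) and miR-3107-5p_+_2 (−1.63), were called as well, at 280 to 596 and 256 to 541 in humanized males and at 430 to 2144 and 393 to 1947 in WT males. Without WT male 4 the miR-486-5p difference was −2.04 (limma adjusted p = 0.00551), and without WT male 2, the highest of the WT males, it was −1.40 (limma adjusted p = 0.183).

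The other red blood cell miRNAs had lower point estimates without passing the adjusted threshold. miR-451, which Argonaute 2 itself cuts from its hairpin in red cell precursors, had a signal of 15767, 27302, 26087, 34164 and 12261 in humanized males, against 19337, 120633, 169843 and 34191 in WT males. WT males 2 and 3 stood far above all humanized males, WT male 4 was level with the highest of them and WT male 1 lay within their range (−1.46 ± 0.55 SE, limma adjusted p = 0.20). miR-144-3p and miR-144-5p, from the hairpin beside miR-451, averaged 7178 and 7670 in humanized males and 19445 and 19122 in WT males (differences −1.23 and −1.14). Of the 7 miRNAs on the red blood cell list, 7 had differences below 0, 3 were called (0.539% of all features were called lower) and 7 had an unadjusted limma p under 0.05 (8.09% of all features). The list's median was −1.66, against 0.04 over all features. These counts hold miR-486 and its near copy miR-3107 side by side, so the same reads enter them under both names. Without miR-3107, 5 of 5 were below 0, 2 were called, 5 had an unadjusted limma p under 0.05 and the median was −1.46. Together the 7 made up 0.934%, 1.35%, 1.21%, 0.756% and 0.696% of the library signal in humanized males 1 to 5, against 2.45%, 5.00%, 3.22% and 1.05% in WT males 1 to 4. Without miR-3107 the shares were 0.565%, 0.828%, 0.750%, 0.509% and 0.424% in humanized males, against 1.35%, 3.06%, 2.18% and 0.661% in WT males. By either sum WT males 1 to 3 stood above the highest humanized male and WT male 4 lay within the humanized range. In females, miR-486-5p was at 21196 to 62055 in humanized and 35974 to 88809 in WT females.

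**Figure D2:**
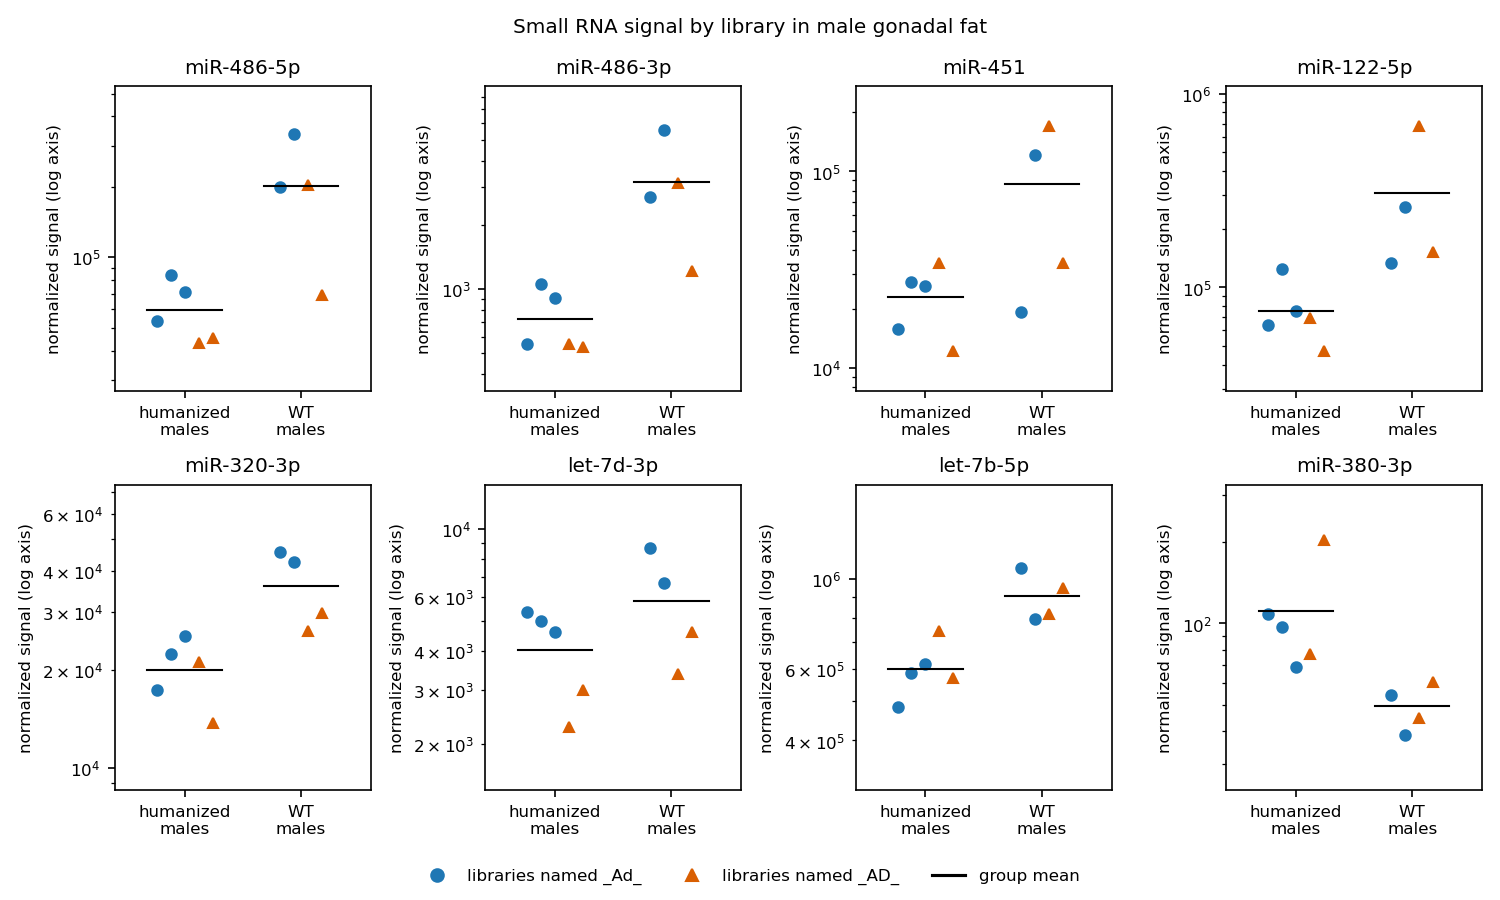
Normalized signal of 8 miRNAs (log axes) in each library of humanized males (left) and WT males (right), with points coloured by sequencing run and a line at the group mean. For miR-486-5p, 3 of the 4 WT males lie above all 5 humanized males, and for let-7b-5p, miR-320-3p, miR-122-5p, miR-486-3p and miR-380-3p the groups do not overlap.

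Red cell transcripts in the long RNA libraries of 3 humanized and 2 WT males are given beside these values, from genes chosen after the small RNA values were seen. The alpha globin gene Hba-a1 had a signal of 30476, 118138 and 80952 in humanized males, against 535279 and 105913 in WT males. The other alpha globin gene, Hba-a2, stood at 34773, 52655 and 86985 in humanized males, against 634194 and 124299 in WT males. The beta globin gene Hbb-bs stood at 46521, 118290 and 118936 in humanized males, against 835528 and 160010 in WT males. In all 3 genes WT male 1 of the long RNA libraries lay far above the rest, and WT male 2 lay above every humanized male for Hba-a2 and Hbb-bs but not for Hba-a1. None of Hba-a1 (−1.84), Hba-a2 (−2.37) and Hbb-bs (−2.07) was called (limma adjusted p = 0.642, 0.458 and 0.528). The globin genes are near copies within each kind, so reads could be split between them. Alas2, the erythroid enzyme of heme synthesis, and Slc4a1, the anion exchanger of the red cell membrane, had differences of −2.33 and −2.58 (limma adjusted p = 0.531 and 0.642). Ank1, the host gene of miR-486, had a signal of 89.6 to 474 in humanized males and 193 and 274 in WT males, a difference of 0.03. The part of blood content in the miRNA differences was not tested.

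Hepatocyte miRNAs were also lower in their point estimates. miR-122-5p, the main miRNA of hepatocytes, had a signal of 64026, 123944, 75687, 69825 and 46774 in humanized males, against 133717, 258777, 683904 and 152742 in WT males. The groups did not overlap, though humanized male 2 stood close to WT male 1, and WT male 3 was by far the highest (−1.79 ± 0.43 SE, limma adjusted p = 0.0522). The difference was −1.14 within the _Ad_ run, −2.50 within the _AD_ run, and −1.24 without WT male 3. miR-192-5p, which liver and gut make, stood at 11723 to 33727 in humanized males and 25887 to 93109 in WT males, again highest in WT male 3 (−1.17, limma adjusted p = 0.155, and −0.76 without WT male 3). miR-194-5p, which shares its primary transcripts with miR-192 and miR-215, was at 2076 to 5718 in humanized males and 2727 to 6673 in WT males (−0.63, limma adjusted p = 0.277, and −0.33 without WT male 3). Of 7 hepatocyte miRNAs tested, 7 were below 0, 0 were called by limma (0.539% of all features were called lower) and 5 had an unadjusted p under 0.05 (8.09% of all features were lower at that p). Their median was −1.17, with −0.62 within the _Ad_ run, −2.21 within the _AD_ run and −0.76 without WT male 3. They summed to 0.364% to 1.01% of library signal in humanized males and to 0.915% to 3.98% in WT males. In liver of 6 humanized and 5 WT males, which include the animal tags of the 9 fat libraries, miR-122-5p differed by −0.13 (limma adjusted p = 0.987).

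WT male 3 also stood high for miR-216b-5p and miR-217-5p, miRNAs of the exocrine pancreas, though not for the summed pancreas list alone. miR-216b-5p had a signal of 54.3, 111, 17.9, 0 and 0 in humanized males 1 to 5, against 40.6, 185, 418 and 44.6 in WT males 1 to 4 (−3.54, limma adjusted p = 0.361). miR-217-5p, from the same cluster, was at 29.3 to 342 in humanized males and 87.2 to 1184 in WT males (−1.77, limma adjusted p = 0.444). The 4 pancreas miRNAs tested were all below 0 with a median of −1.95, which was −0.27 within the _Ad_ run, −4.25 within the _AD_ run and −3.17 to −1.13 when 1 library was left out. The _AD_ value rests in part on humanized males 4 and 5, in which miR-216b-5p was listed at 0. Of the 4, 0 were called by limma or had an unadjusted p under 0.05. They summed to 0.588% to 1.54% of library signal in humanized males and 0.580% to 1.40% in WT males. The sum was 1.54% in humanized male 5 and 1.40% in WT male 3. miR-148a-3p, the most abundant of the 4, averaged 150970 in humanized males and 177882 in WT males (−0.14, limma adjusted p = 0.719). The part of neighbouring tissue in these values was not tested. Albumin (Alb) in the long RNA libraries was at 598, 8174 and 2162 in humanized males, against 129200 and 1021 in WT males, so that 1 of the 2 WT males stood above and the other did not. Other hepatocyte genes measured were Apoa2, Ttr and Serpina1c, and WT male 1 of the long RNA libraries was the highest male in each. WT male 2 of those libraries stood below every humanized male for Apoa2 (11.9) and Ttr (12.0), and above each for Serpina1c (1267). None of these genes was called (limma adjusted p from 0.661 to 0.922).

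**Figure D3:**
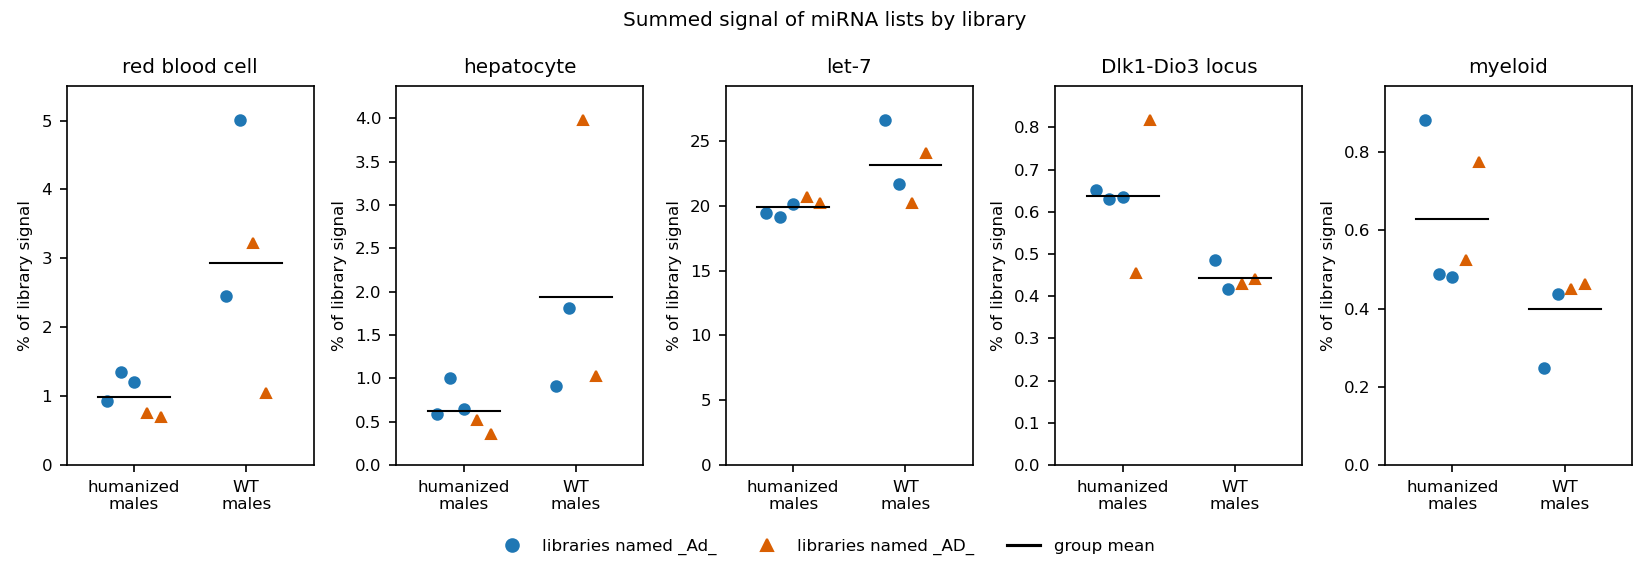
Summed signal of the tested members of 5 miRNA lists as a percentage of library signal, in humanized males (left) and WT males (right), with points coloured by sequencing run and a line at the group mean. The red blood cell list sums to 0.696% to 1.35% in humanized males and 1.05% to 5.00% in WT males, with miR-486 and its near copy both counted.

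miR-320-3p was called lower in humanized males in 1 of its 4 tested forms, and the point estimates of the other 3 were also below 0. miR-320 is made without the Drosha and DGCR8 complex, from a short capped precursor. The annotated form had a signal of 17363, 22394, 25322, 21130 and 13704 in humanized males, against 45840, 42570, 26164 and 29723 in WT males. The groups did not overlap, but humanized male 3 and WT male 3 were near each other (−0.87 ± 0.20 SE, limma adjusted p = 0.0506). The form shifted by +1 was called, at 932, 1227, 1282, 946 and 772 in humanized males, against 2633, 2041, 1450 and 1476 in WT males (−0.89 ± 0.19 SE, limma adjusted p = 0.0487). Both runs gave the same sign for this form, with −1.03 in the _Ad_ run and −0.77 in the _AD_ run. All 4 tested forms of miR-320-3p were below 0, from −0.89 to −0.75, and in all 4 the groups did not overlap (2.31% of all features). The forms share a hairpin, so they are not independent.

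let-7d-3p, the arm opposite the let-7d miRNA, was called in its form shifted by +1. That form had a signal of 171, 207, 158, 83.4 and 93.5 in humanized males, against 347, 368, 143 and 180 in WT males. The runs differed in level, and within each run both WT males stood above the humanized ones (−1.01 in the _Ad_ run, −0.85 in the _AD_ run). Pooled, the difference was −0.92 ± 0.19 (SE, limma adjusted p = 0.0487). The annotated let-7d-3p was at 2258 to 5359 in humanized males and 3381 to 8706 in WT males, with −0.61 in each run (limma adjusted p = 0.0838).

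The let-7 family, whose members share the seed printed above and act against growth factor and insulin signalling genes, was lower throughout in its point estimates, and none was called. let-7b-5p had a signal of 483329, 586174, 617124, 745848 and 569939 in humanized males, against 1063300, 796575, 820633 and 948697 in WT males. The groups did not overlap (−0.58 ± 0.17 SE, limma adjusted p = 0.0986). let-7c-5p, counted under both of its hairpins, averaged under let-7c-2 629027 in humanized males and 883086 in WT males (−0.47, limma adjusted p = 0.149). let-7a-5p stood at 282145 to 348779 in humanized males and 343355 to 465187 in WT males (−0.35, limma adjusted p = 0.203). let-7g-5p (−0.17) and let-7f-5p (−0.22) were the least different of the family, and in the _AD_ run let-7g-5p was at 0.09. Of 9 family members tested, 9 were below 0, 0 were called by limma and 6 had an unadjusted p under 0.05 (8.09% of all features were lower at that p). The median was −0.38, with −0.47 in the _Ad_ run and −0.31 in the _AD_ run. The family summed to 19.1% to 20.6% of library signal in humanized males and 20.2% to 26.6% in WT males.

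miR-25-3p, from an intron of the replication factor gene Mcm7, was lower in its point estimate with groups that did not overlap. It had a signal of 49190, 52267, 49653, 64006 and 64911 in humanized males, against 66688, 110284, 117339 and 72917 in WT males (−0.64 ± 0.16 SE, limma adjusted p = 0.0541). miR-92a-3p, with the same seed, stood at 9923 to 34957 in humanized males and 18503 to 37493 in WT males (−0.40 for the first of its hairpins, limma adjusted p = 0.392). miR-93-5p, from the same intron as miR-25, was at −0.24. Of 18 members of the miR-17-92 cluster and its paralogs, 10 were above and 8 below 0, with a median of 0.09. Mcm7 itself had a signal of 2281 to 2674 in humanized males and 2680 and 3526 in WT males (−0.30, limma adjusted p = 0.662).

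The feature called higher in humanized males, the form of miR-195-3p shifted by +1, lay near the listing floor. It had a signal of 21.7, 18.1, 15.998, 31.4 and 37.1 in humanized males, and was listed at 0 in WT males 1 and 2 and at 17.9 and 23.9 in WT males 3 and 4. The 2 WT males at 0 are the shallowest libraries, in which 10 reads are worth 15.04 and 16.1. The difference was 2.56 (limma adjusted p = 0.0487), 4.28 in the _Ad_ run and 0.70 in the _AD_ run. With every 0 set to the signal of 10 reads it was 0.46 (limma adjusted p = 0.330). The annotated miR-195-3p was at 873 to 1126 in humanized males and 969 to 1066 in WT males, a difference of 0.03. The forms miR-28-5p_+_1 and miR-218-1-3p were likewise listed at 0 in 3 of 4 WT males each, and miR-146b-5p_-_1 in 2 of 4. They had 15.5 to 27.3, 9.67 to 31.5 and 21.6 to 121.7 in humanized males, and none was called.

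Better measured miRNAs with higher point estimates in humanized males included those of myeloid cells. miR-223-3p, the miRNA of granulocytes and monocytes, had a signal of 6290, 4426, 4190, 4753 and 5708 in humanized males, against 2164, 3642, 4426 and 3605 in WT males (0.57 ± 0.23 SE, limma adjusted p = 0.227, and 0.31 without WT male 1). Its form shifted by −1 was at 74.3 to 158 in humanized males and 21.1 to 73.2 in WT males, without overlap (1.32 ± 0.31 SE, limma adjusted p = 0.0522). miR-146b-5p, which NF-κB signalling induces, was at 18360 to 56686 in humanized males and 9569 to 31791 in WT males (0.84, limma adjusted p = 0.257, and 0.54 without WT male 1). miR-146a-5p, its relative with the same kind of regulation, was at 0.41. miR-511-3p, which macrophages make from the Mrc1 gene, averaged 5051 in humanized males and 2021 in WT males (limma adjusted p = 0.285). Of 12 myeloid miRNAs tested, 10 were above 0, 0 were called by limma and 4 had an unadjusted p under 0.05 (7.24% of all features were higher at that p). Their median was 0.37, with 0.42 in the _Ad_ run and 0.36 in the _AD_ run, and 0.24 without humanized male 1 or without WT male 1. They summed to 0.480% to 0.881% of library signal in humanized males and 0.248% to 0.463% in WT males, groups that nearly met but did not overlap. The members were not all higher: 2 were below 0, the lowest at −0.06. miR-155-5p, among the 10 above 0, had a difference of 0.03 with run in the fit (limma adjusted p = 0.985). Its plain averages, without regard to run, were 7835 in humanized males and 8135 in WT males.

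The Dlk1-Dio3 locus, an imprinted region that is expressed from the maternal allele as a long cluster of miRNAs, was mostly higher in its point estimates. miR-380-3p had a signal of 109, 97.1, 68.7, 76.9 and 204 in humanized males, against 54.1, 38.6, 44.7 and 60.5 in WT males, without overlap (1.09 ± 0.27 SE, limma adjusted p = 0.0724). miR-379-5p, at the start of its cluster, was at 5650 to 19137 in humanized males and 5416 to 14200 in WT males (0.56, limma adjusted p = 0.378, and 0.26 without humanized male 5). miR-127-3p, the antisense partner of the Rtl1 gene, was at 40937 to 51874 in humanized males and 33671 to 41425 in WT males (0.29, limma adjusted p = 0.427). miR-329-5p was at 373 to 412 in humanized males 1 to 4 and 983 in humanized male 5, against 130 to 441 in WT males (0.90, limma adjusted p = 0.0838). Of 54 miRNAs of the locus tested, 48 were above 0, 0 were called by limma, 15 had an unadjusted p under 0.05 (7.24% of all features were higher at that p) and 4 had groups that did not overlap (1.54%). The median was 0.41, with 0.40 in the _Ad_ run and 0.35 in the _AD_ run, and 0.23 without humanized male 5. They summed to 0.652%, 0.629%, 0.635%, 0.455% and 0.816% of library signal in humanized males, against 0.485%, 0.416%, 0.429% and 0.442% in WT males, where humanized male 4 stood within the WT range. Of the long transcripts of the locus, Meg3 was at 0.03, Rian at 0.07 and Mirg at −0.12 in the long RNA libraries (limma adjusted p = 0.983, 0.973 and 0.965).

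**Figure D4:**
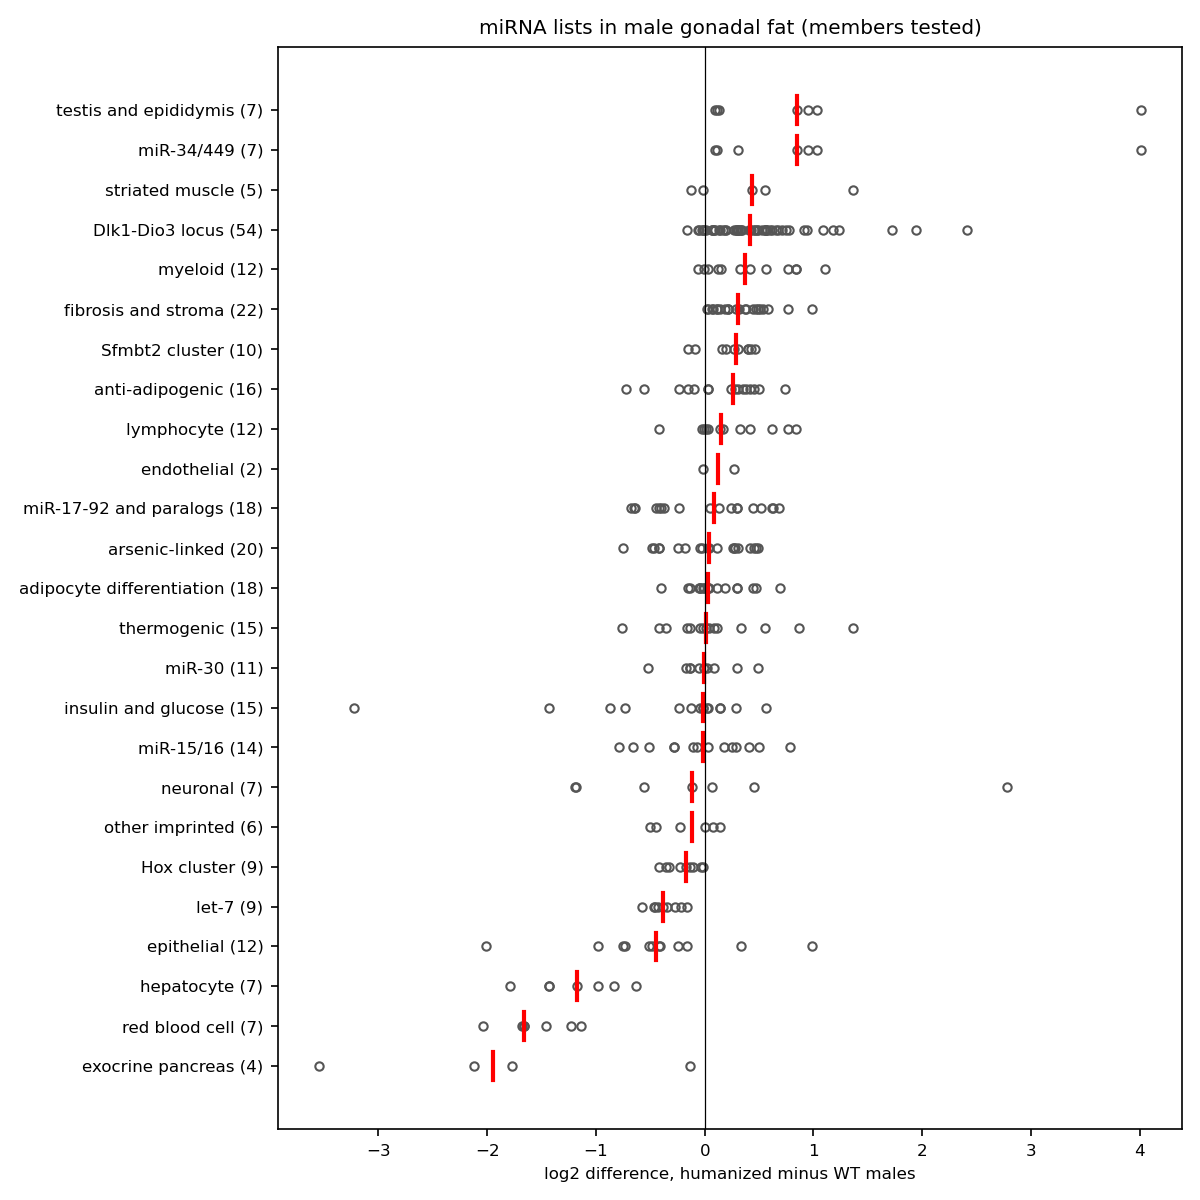
Log2 difference (humanized minus WT males) of each tested member of 25 miRNA lists (open circles, number tested in parentheses), with the list median as a bar. The red blood cell, hepatocyte, pancreas, let-7 and Hox cluster members all lie below 0. All members of the fibrosis and stroma list (22), the testis and epididymis list (7) and the miR-34 list (7) lie above it.

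miRNAs of stroma and fibrosis were all above 0 in their point estimates. Of 22 tested, 22 were above 0, 0 were called by limma and 6 had an unadjusted p under 0.05 (7.24% of all features were higher at that p). Of all features, 45.5% were below 0. The list's median was 0.30, with 0.43 in the _Ad_ run, 0.20 in the _AD_ run and 0.18 without WT male 1. The members summed to 14.7%, 10.1%, 8.82%, 8.00% and 17.1% of library signal in humanized males 1 to 5, against 6.75% to 8.44% in WT males. Humanized males 1 and 5 were thus the highest, and humanized male 4 lay within the WT range. miR-199b-5p, made antisense to the dynamin gene Dnm1, averaged 969 in humanized males and 483 in WT males (0.98, limma adjusted p = 0.0986). miR-214-5p, made antisense to the dynamin gene Dnm3, averaged 450 in humanized males and 269 in WT males (0.77, limma adjusted p = 0.154). miR-21-5p, which rises in many fibrotic and inflamed tissues, had a signal of 1600970, 1112820, 784846, 497547 and 1994320 in humanized males, against 757940, 790849, 768657 and 684130 in WT males. Humanized males spread widely on both sides of the narrow WT range (0.47, limma adjusted p = 0.444, 0.14 without humanized male 5 and 0.73 without humanized male 4). Outside that list, miR-455-5p, from an intron of the collagen gene Col27a1, was at 579, 360, 314, 368 and 470 in humanized males, against 152, 169, 300 and 353 in WT males (0.86 ± 0.23 SE, limma adjusted p = 0.0838). Its difference was 1.33 in the _Ad_ run and 0.35 in the _AD_ run, and Col27a1 in the long RNA was at 0.45 (limma adjusted p = 0.689). miR-99a-3p was at 180 to 245 in humanized males and 88.7 to 184 in WT males (0.68, limma adjusted p = 0.0986). miR-5121 was at 40.1 to 70.7 in humanized males and 19.5 to 38.7 in WT males, without overlap (0.86, limma adjusted p = 0.0973).

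miRNAs named for adipocyte functions showed no common direction. Of 18 with a role in adipocyte differentiation, 10 were above and 8 below 0, from −0.40 to 0.70 with a median of 0.03, and 0 were called by limma or had an unadjusted p under 0.05. Of 16 anti-adipogenic miRNAs, 11 were above 0, with a median of 0.26 that was 0.53 in the _Ad_ run and −0.04 in the _AD_ run. miR-27b-3p, which restrains the adipogenic factor PPARγ, was at 103171 to 137180 in humanized males and 69455 to 113289 in WT males (0.36, limma adjusted p = 0.257). Among 15 thermogenic miRNAs the median was 0.01, and miR-328-3p was at 7078 to 18364 in humanized males and 7666 to 38004 in WT males (−0.76, limma adjusted p = 0.155). The 15 insulin and glucose miRNAs had a median of −0.02, the 11 miR-30 members −0.01, the 14 miR-15/16 members −0.02 and the 20 miRNAs with earlier links to arsenic 0.04. The miR-15/16 members ran from −0.78 to 0.78. Of them, 3 were higher and 3 lower at an unadjusted limma p under 0.05 (7.24% and 8.09% of all features). The 12 lymphocyte miRNAs had a median of 0.15. miR-151-3p, from an intron of the focal adhesion kinase gene Ptk2, was at −0.42 (limma adjusted p = 0.167). None of these lists held a called member.

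Markers of other tissues near the fat pad were low in level. The 7 testis and epididymis miRNAs tested summed to 0.00812% to 0.0405% of library signal in humanized males and 0.00491% to 0.0165% in WT males, with a median difference of 0.85. miR-34c-5p, from ciliated and germ cells, was at 587 to 4878 in humanized males and 625 to 2465 in WT males (0.85, limma adjusted p = 0.687). The 12 epithelial miRNAs summed to 0.109% to 0.329% in humanized males and 0.0755% to 0.209% in WT males, with a median of −0.45. The 5 striated muscle miRNAs summed to 0.0743% to 0.171% in humanized males and 0.0315% to 0.108% in WT males, with a median of 0.44. Of the 5, 3 were above and 2 below 0, and the median was 0.07 without WT male 4 and 0.75 without WT male 3. Medians of the remaining lists were 0.13 for 2 endothelial, −0.11 for 7 neuronal, −0.17 for 9 Hox cluster, 0.29 for 10 Sfmbt2 cluster, −0.11 for 6 other imprinted and 0.85 for 7 miRNAs of the miR-34 family. The miR-34 family list shares 6 of its 7 tested members with the testis list. miR-34a-5p, the p53-responsive member that all cells can make, was at 40380, 21103, 29166, 30625 and 32519 in humanized males, against 24583, 29318, 16926 and 25338 in WT males (0.31 ± 0.36 SE, limma adjusted p = 0.728).

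Among the most abundant features none was called. miR-26a-5p, which is counted under both of its hairpins, led with miR-21-5p: it averaged 1018860 ± 181307 in humanized males and 1128930 ± 46742 in WT males (SD, n = 5 and 4, difference −0.15, limma adjusted p = 0.630). miR-30a-5p averaged 724361 in humanized males and 743141 in WT males (−0.05). miR-10b-5p averaged 691809 in humanized males and 890228 in WT males (−0.33, limma adjusted p = 0.477). miR-22-3p was at 355259 to 908530 in humanized males and 364510 to 1010280 in WT males, and in both groups the _AD_ run held the higher values (−0.14). miR-26b-5p differed by −0.04. These intervals remain wide: for miR-26a-5p the 95% interval ran from −0.44 to 0.13.

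Whether the genotype difference of males depended on the run was tested by an interaction over the 9 libraries, which called 0 of 1289 features (0%), with 51 at an unadjusted limma p under 0.05. Each group then had 2 or 3 libraries, so a p that misses the threshold does not show that the runs were alike. The differences had a median size of 0.45 in the _Ad_ run and 0.32 in the _AD_ run. The male and female genotype differences were compared in the same fit, which called 0 of 1298 features (0%), with 63 at an unadjusted p under 0.05. In females 0 features were called (0%), with 32 at an unadjusted p under 0.05. miR-486-5p was at −1.66 in males and −0.39 in females (difference between the sexes −1.27, limma adjusted p = 0.860), and miR-122-5p was at −1.79 in males and −0.14 in females (−1.65, limma adjusted p = 0.860). let-7b-5p was at −0.58 in males and −0.18 in females, and miR-320-3p at −0.87 in males and −0.17 in females. The Dlk1-Dio3 median was 0.41 in males and 0.29 in females. miR-34a-5p was at 0.31 in males and −0.85 in females (1.16, limma adjusted p = 0.860).

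In liver of the males, 0 of 837 features were called between humanized and WT (0%), with 46 at an unadjusted limma p under 0.05. The 9 animal tags of the male fat libraries recur among the 11 liver libraries of males, so the values are set side by side with no test between tissues. The red blood cell list had a median of −0.36 in liver and −1.66 in fat. The hepatocyte list was at 0.07 in liver and −1.17 in fat, and let-7 at −0.01 in liver and −0.38 in fat. miR-320-3p was at −0.11 in liver, and miR-34a-5p at 1.28 (limma adjusted p = 0.847).

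**Figure D5:**
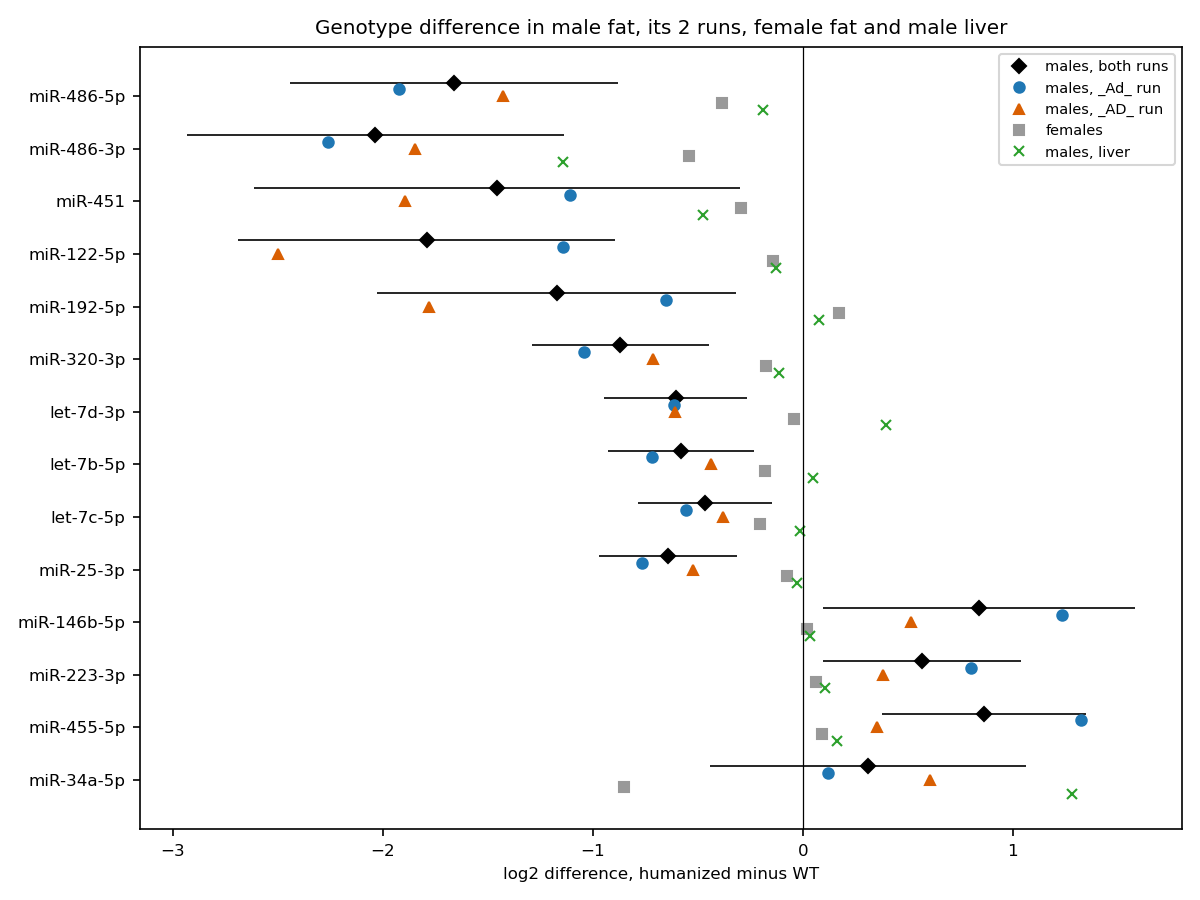
Log2 difference (humanized minus WT) of 14 miRNAs in male gonadal fat (diamonds, with 95% interval), in each of its sequencing runs, in female gonadal fat and in male liver. The runs share the sign of the male difference for all 14, while female and liver values lie nearer to 0 for miR-486-5p, miR-122-5p and miR-320-3p.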

How the data were processed

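The submitters' processing notes name STAR, Salmon, DESeq2, limma and the mm9 build, without saying which step used which. The deposited small RNA and long RNA tables hold normalized signal, made with DESeq2 per the file names and the submitters' processing notes. The authors also deposited small RNA values on a regularized log2 scale after batch correction, used as an alternative. In each adipose small RNA library all listed signal values lay within 0.001 steps of a whole multiple of 1 step, and the smallest was 10 steps. That 1 step is 1 read is inferred from these values and stated in no source used here, so the planned count tests were not run and read numbers are inferred.

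Values entered limma 3.58.1 (R 4.3.3) as log2(signal + 1), with a mean-variance trend. A feature was tested if its mean signal over the 20 adipose libraries reached 10, in 1 model of 4 groups plus run. p-values were Benjamini-Hochberg adjusted over all 1298 features, with 0.05 as the threshold. The run by genotype fit used the 9 male libraries. The same fit without run served for long RNA. The small RNA fits were tried on simulated data, with outcomes not given here, and the long RNA fit was not. Labels do not say whether libraries came from separate animals beyond the animal tags in their names, so p-values measure the spread between these libraries. The members, lists and tests were chosen with earlier results of these data known.

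Features named one by one follow a rule: called features, the 10 smallest p in a direction with under 5 calls, the 15 most abundant, the 3 most abundant of each of 25 lists, miR-34a-5p, and the annotated or shifted partner of each. It took 92 features, of which 17 list members with a difference under 0.15 are given as part of their list only, except miR-155-5p. The other 75 are the named features of the closing sections. Several list members among these 75 also have no values of their own in the paragraphs above. Examples are miR-497-5p (0.40), miR-221-3p (0.45), miR-218-2-5p (0.46) and miR-16-1-5p (−0.28), none of them called. These choices were made after the values were seen. Other list members, named as examples, were chosen after their values were seen. Alternatives changed the samples, run term, pseudocount (0.5 or 10), filter and scaling, or left out 1 library. Setting each 0 to 10 reads, summing forms to mature miRNAs and leaving miR-3107 out of the red blood cell list were chosen after seeing the data.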

Additional observations from a re-analysis of the deposited data

Results flagged for a closer look

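Among 156 groups of 4 or 5 male libraries (each named feature and 3 list sums, in humanized and in WT males), 8 held 1 library whose gap to the nearest other was large for the range of its group. Chance gives about 1 in 20 such groups, which is near the share flagged here. Humanized male 5 stood high for miR-329-5p, with a signal of 983 against 412 in the next library, and for let-7i-5p, with 508425 against 344258. Humanized male 1 stood high for miR-146a-5p (58868 against 34634), and humanized male 3 for miR-1a-2-3p (22848 against 13152), a miRNA of striated muscle. WT male 3 stood high for miR-30a-5p (952761 against 690760) and low for miR-467c-5p (157 against 208). WT male 2 was the WT male with miR-28-5p_+_1 listed, at 17.7, and WT male 4 the one with miR-218-1-3p listed, at 11.1, while the other 3 WT males were at 0 in each. With 3 of 4 libraries at 0, any listed value would be flagged, so these flags do not bear on the chance rate.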

How the results depend on the processing

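The 8 calls in males became 0 in the fit of males only, without the run term, with a pseudocount of 0.5, without the filter on low values and under TMM rescaling, each with limma and with 143 or more features at an unadjusted p under 0.05. They became 15 with a pseudocount of 10 (8 shared with the 8), 17 over features listed in all 20 libraries (7 shared), 23 on the batch-corrected rlog values (8 shared) and 24 with each 0 set to 10 reads (7 shared). They were 8 under median ratio rescaling (8 shared), 10 in the _Ad_ run (9 higher and 1 lower, 2 shared) and 1 in the _AD_ run (0 shared). Leaving out 1 library gave 0 to 25. Summed to mature miRNAs, 8 of 514 were called, all lower: miR-486-5p, miR-486-3p, miR-3107-5p, miR-3107-3p, miR-320-3p, miR-122-5p (−1.79), miR-25-3p (−0.64) and miR-676-3p (−0.59), each at a limma adjusted p of 0.0476. The difference between the sexes gave 8 calls in the _Ad_ run only and 0 in the other alternatives run. The run by genotype test gave 0 in each alternative run. miR-486-5p lay between −2.04 and −1.28 (limma adjusted p from 0.00551 to 0.915). Of 75 named features 9 changed sign, none of them called. In the _Ad_ run these were miR-28-5p (−0.035), miR-22-3p (0.031), miR-298-5p (0.024) and miR-30a-5p (0.032). In the _AD_ run they were let-7g-5p (0.088), miR-195-5p (−0.25), miR-26b-5p (0.16) and miR-195-3p (−0.036). Leaving out 1 library gave −0.15 to 0.10 for miR-30a-5p, −0.83 to 0.24 for miR-298-5p, −0.26 to 0.0045 for let-7g-5p, −0.13 to 0.061 for miR-26b-5p, −0.0072 to 0.10 for miR-195-3p and −0.69 to 0.0033 for miR-200a-3p. The cause was not tested. List medians moved beyond the spread between replicates in the _AD_ run for hepatocyte (−2.21) and pancreas miRNAs (−4.25). The planned count tests in edgeR and DESeq2 were not run, since the deposited values are normalized signal and reads are only inferred. No paired analysis was possible because the humanized and WT male fat libraries share fewer than 2 replicate numbers in their labels. Features near 10 reads cannot be read in the shallow WT males 1 and 2, which are the WT males of the _Ad_ run. This limit bears on the calls of that run, those between the sexes included.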
